A study of Mus musculus with 31 samples.

Results

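The genes described here are 10 genes of the vessel wall, chosen by symbol: the barrier genes Cldn5, Ocln, Tjp1, Pecam1, Slc2a1 and Mfsd2a, the fenestral gene Plvap, and the leukocyte adhesion genes Vcam1, Icam1 and Selp. Of the 15648 genes in the deposited table, 9 were members, and Selp had no row and was not analysed here. The samples were left hippocampi of adult OT-I/Rag-/- mice (Rag1 is the deleted gene in the study's methods), whose T cells carry one receptor specific for an ovalbumin peptide and which otherwise lack mature T and B cells. Both hippocampi had received an adeno-associated virus that uses the human synapsin promoter, active in neurons, to drive either ovalbumin with mCherry (rAAV-OVA) or mCherry alone (rAAV-control). Tissue was taken 2, 5, 8 or 28 d later from 4 mice per group, except rAAV-control at 8 d with 3 mice, which gave 31 mice in 8 groups. Genotype, injection and promoter were shared by all groups, which differed in the ovalbumin part of the insert and in time.

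Endothelial cells of brain vessels form the blood-brain barrier. Claudins and occludin seal the clefts between neighbouring cells, Tjp1 ties them to the cytoskeleton, and transporters such as Slc2a1 and Mfsd2a carry nutrients across cells that otherwise take up little by vesicles. Inflammatory cytokines make the same cells display Vcam1 and Icam1, which hold leukocytes through their integrins before these cross the wall. In bulk tissue, fewer cells of a type and less RNA per cell cannot be told apart, and Vcam1 and Icam1 can also be made by glia and infiltrating cells.

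Promoter sequences were available for 7 of the 10 genes in a RefSeq table on GRCm38.p6, and those of Icam1 and Cldn5 are shown as one adhesion gene that was called higher from 5 d on and one barrier gene that was called higher at 28 d. Each run is the 250 bases before the start of the gene on the plus strand, Icam1 at chr9:21015690-21015939 and Cldn5 at chr16:18776597-18776846. Capitals mark letters that match a searched motif on either strand: a general NF-kappaB form (GGG and CC with 5 bases of any kind between), the kappaB form GGAAATTCC, the STAT form TTCNNNGAA or the interferon form (GAAA and GAAA with 2 bases of any kind between).
Icam1: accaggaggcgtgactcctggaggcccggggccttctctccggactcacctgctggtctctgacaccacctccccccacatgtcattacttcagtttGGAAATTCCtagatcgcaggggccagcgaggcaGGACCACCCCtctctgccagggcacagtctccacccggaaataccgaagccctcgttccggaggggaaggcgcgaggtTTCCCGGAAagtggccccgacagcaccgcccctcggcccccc
Cldn5: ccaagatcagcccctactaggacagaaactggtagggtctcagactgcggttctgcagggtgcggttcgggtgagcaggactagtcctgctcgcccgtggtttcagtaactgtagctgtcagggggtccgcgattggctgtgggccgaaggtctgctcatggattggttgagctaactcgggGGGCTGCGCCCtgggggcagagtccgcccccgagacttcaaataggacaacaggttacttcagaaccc
The Icam1 window held GGAAATTCC at 153 to 145 bases before the start, a sequence present in 0.286% of 32851 promoter windows of this length. This form was searched as the ICAM1 type of kappaB site. Its match in Icam1 could therefore be foreseen, and its low share in all windows is no support. The Icam1 window also held the STAT form TTCCCGGAA at 42 to 34 bases, a form present in 7.02% of windows, and 1 general kappaB match, GGACCACCCC. General kappaB matches stood in 45.8% of all windows, and the 2 in Cldn5 overlapped each other. The interferon form, in 2.98% of windows, was found in neither. The motifs were chosen after part of these sequences had been seen, and a match describes letters only.

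Between 19046977 and 57407902 estimated fragments were assigned to genes per mouse, with a median of 27024978, and expression is given as CPM, the counts scaled to a common library size after TMM normalisation. Neither transgene had a row, so delivery could not be checked. Summed CPM of the T cell genes Cd8a, Trbc2 and Lck lay between 115 and 722.8 in the rAAV-OVA mice from 5 d on, other than D844 at 28 d with 35.8. In the control mice it lay between 1.51 and 7.17 except in D720 at 8 d, which reached 39.6. All 20 general endothelial markers examined were present. Choroid plexus markers summed to between 37.4 and 5452 CPM with a range of 45.6 to 3903 CPM within rAAV-control at 5 d alone, and D845 (rAAV-OVA, 28 d) stood apart with 704 CPM of perivascular fibroblast markers against 82.05 to 214 in the other 30 mice. The labels put 23 mice in batch 1 and 8 in batch 2 without saying which step the batches mark. The 2 d and 28 d groups held 2 mice of each batch, and the 5 d and 8 d groups held batch 1 only.

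Vcam1 and Icam1, the ligands for leukocyte integrins, rose in rAAV-OVA mice at 5, 8 and 28 d, and no member fell against rAAV-control on any day. Of the barrier genes, Mfsd2a rose at 5 d, and Cldn5 and Pecam1 rose at 28 d. Ocln, Tjp1, Slc2a1 and Plvap did not pass the test on any day. A gene is said to have risen or fallen where edgeR's quasi-likelihood test, fitted on all 31 mice and all genes, gave a false discovery rate (FDR) of at most 0.05 and a Log2FC of at least 0.66 in size. Log2FC is the fitted log2 ratio of rAAV-OVA to rAAV-control on that day, adjusted for 2 surrogate variables, and it is given with its standard error (SE).

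**Figure D1:**
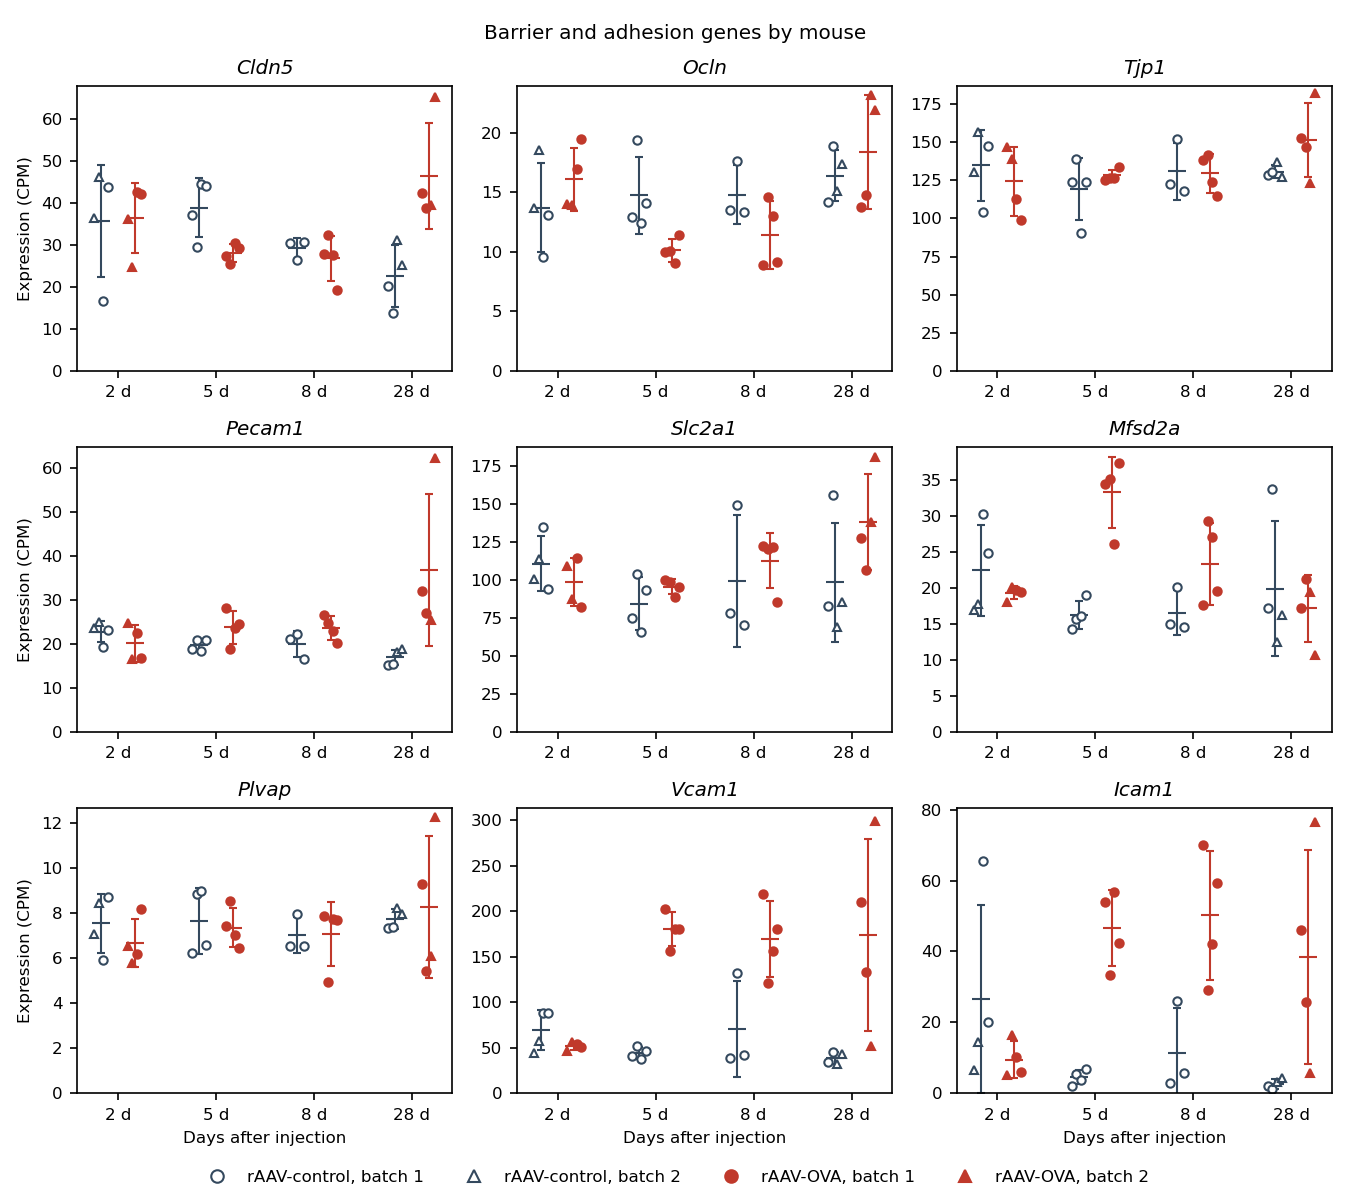
Expression (CPM, linear axes from 0) of the 9 measured genes in each mouse at 2, 5, 8 and 28 d, with open blue symbols for rAAV-control, filled red symbols for rAAV-OVA, circles for batch 1 and triangles for batch 2, and bars for the mean and SD of each group (n = 4, or 3 for rAAV-control at 8 d). Vcam1 and Icam1 separate the vectors most clearly at 5 d, Mfsd2a is highest in the rAAV-OVA mice at 5 d, and Cldn5 and Pecam1 separate the vectors at 28 d.

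At 2 d the adhesion genes of the vectors overlapped. Vcam1 measured 46.7, 50.2, 53.6 and 56.5 CPM in the rAAV-OVA mice and 44.3, 56.8, 87.8 and 88.4 CPM in the rAAV-control mice. Icam1 measured 5.00, 6.06, 10.2 and 16.4 CPM with rAAV-OVA and 6.40, 14.3, 19.96 and 65.5 CPM with rAAV-control. The highest Icam1 value belonged to D740, which also had the lowest Cldn5 of its day (16.7 CPM). None of the 9 members passed the test at 2 d, when 0% of all genes did, and none had groups without overlap, against 4.15% of all genes. Icam1 alone had an unadjusted p under 0.05, a level that 9.05% of all genes reached, with a Log2FC of -1.42 (SE 0.57, FDR 0.472). Without D740 that Log2FC was -0.36 (FDR 0.908), and both DESeq2 and limma also called none of the members.

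At 5 d the adhesion genes separated the vectors. Vcam1 measured 157, 181, 181 and 202 CPM in rAAV-OVA mice and 37.6, 40.5, 46.7 and 52.3 CPM in rAAV-control mice. Icam1 measured 33.4, 42.2, 53.9 and 56.6 CPM against 2.10, 3.82, 5.37 and 6.89 CPM. Every rAAV-OVA mouse thus lay above every control mouse for both genes. The fitted Log2FC was 1.52 for Vcam1 (SE 0.30, FDR 0.000699) and 2.38 for Icam1 (SE 0.62, FDR 0.00598), which are folds of 2.86 and 5.21. Without the surrogate variables the Log2FC values were 2.02 and 3.33, so the adjusted folds are smaller than the ratios of the raw CPM.

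Mfsd2a, the lipid carrier that keeps vesicle uptake low in brain endothelium, was the barrier gene called at 5 d. It measured 26.1, 34.4, 35.0 and 37.3 CPM in rAAV-OVA mice and 14.3, 15.6, 16.1 and 18.9 CPM in rAAV-control mice, with no overlap. Its Log2FC was 1.09 (SE 0.26, FDR 0.00347). The tight junction genes did not pass the test. Ocln measured 9.09, 9.97, 10.1 and 11.4 CPM with rAAV-OVA and 12.4, 12.98, 14.2 and 19.4 CPM with rAAV-control, with a Log2FC of -0.47 (SE 0.22, FDR 0.108). Cldn5, the main claudin of the barrier, measured 25.4, 27.5, 29.2 and 30.4 CPM against 29.6, 37.2, 44.2 and 44.6 CPM, with a Log2FC of -0.37 (SE 0.28, FDR 0.335). The Ocln groups did not overlap and those of Cldn5 overlapped by a single control mouse, D724. That mouse held the highest Ocln value and 3903 CPM of choroid plexus markers, against 45.6 to 151 CPM in the other 7 mice of 5 d, and without it the Log2FC of Ocln was -0.26 (FDR 0.436). The part of choroid plexus tissue in the Ocln values was not tested.

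In all, 3 of 9 members were called at 5 d, each of them higher, where 14.4% of all genes were called, 9.63% higher and 4.72% lower. The groups did not overlap for 4 of 9 members, against 40.6% of all genes. Tjp1, Pecam1, Slc2a1 and Plvap had Log2FC values between -0.21 and 0.25.

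At 8 d both adhesion genes were again called, with 1 control mouse near or among the rAAV-OVA values. Vcam1 measured 121, 156, 181 and 219 CPM in rAAV-OVA mice and 38.5, 42.1 and 132 CPM in rAAV-control mice. Icam1 measured 29.2, 42.0, 59.3 and 70.1 CPM against 2.7, 5.65 and 25.95 CPM. The high control mouse for both genes was D720, the one with T cell gene counts above the other controls and 753 CPM of myeloid markers. Vcam1 groups therefore overlapped and Icam1 groups did not. The Log2FC was 1.28 for Vcam1 (SE 0.32, FDR 0.00697) and 2.18 for Icam1 (SE 0.65, FDR 0.0217), and without D720 it was 1.75 and 2.94. The Icam1 call ended with no surrogate variables (2.14, FDR 0.0654), with the batch label in their place (2.14, FDR 0.0657) and with at least 15 counts in every mouse (1.83, FDR 0.0518). In a fit of the mice of 8 d alone neither was called, at 1.28 (FDR 0.137) for Vcam1 and 2.15 (FDR 0.126) for Icam1. Without 1 mouse the Vcam1 call was lost in 3 of 31 fits and the Icam1 call in 8.

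Mfsd2a at 8 d measured 17.6, 19.5, 27.04 and 29.2 CPM in rAAV-OVA mice and 14.6, 14.95 and 20.1 CPM in control mice, a Log2FC of 0.42 (SE 0.27, FDR 0.281). The other barrier genes and Plvap had overlapping groups, and their Log2FC lay between -0.37 for Ocln and 0.28 for Pecam1. Thus 2 of 9 members were called, both higher, against 9.89% of all genes called, 9.32% higher and 0.569% lower. Only Icam1 had groups that did not overlap, a pattern seen in 26.4% of all genes. The Icam1 call did not hold in 8 of the 31 fits that left out 1 mouse, and the Vcam1 call did not hold in 3, in which the Log2FC fell as low as 1.44 and 0.81. The mice concerned are named with the dependence on processing.

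**Figure D2:**
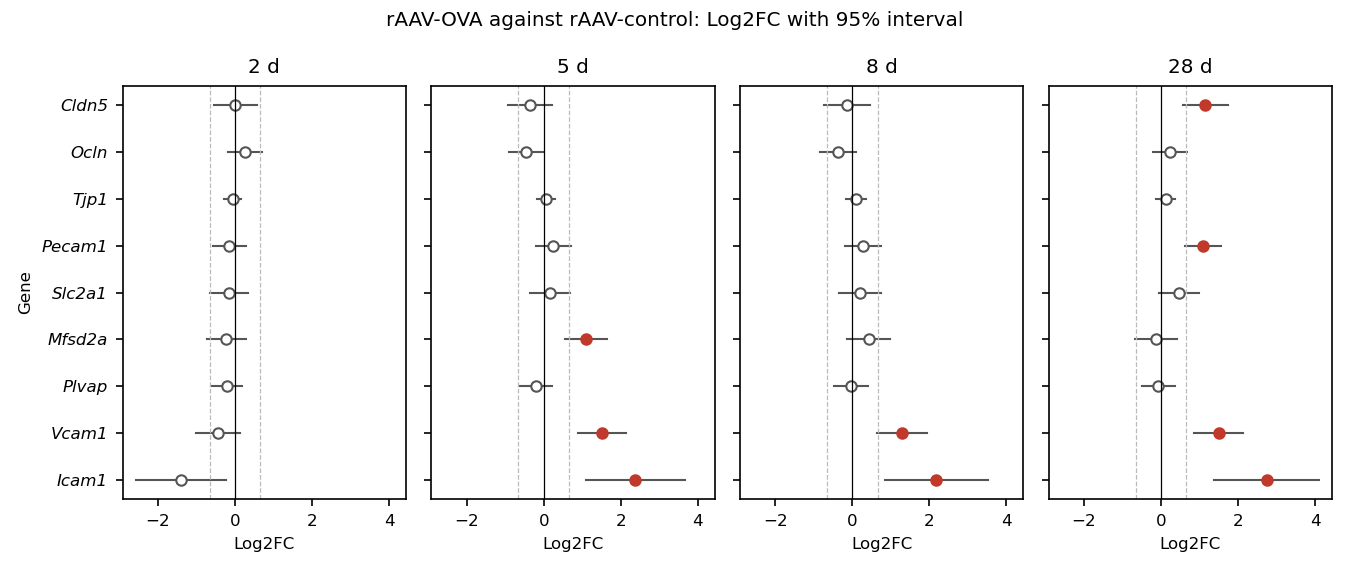
Fitted Log2FC of rAAV-OVA against rAAV-control for each gene on each day, with 95% confidence intervals. Filled red points passed the call rule and dashed lines stand at 0.66 in either direction. Vcam1 and Icam1 are called at 5, 8 and 28 d, Mfsd2a at 5 d, and Cldn5 and Pecam1 at 28 d.

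At 28 d a pair of barrier genes was called together with both adhesion genes. Cldn5 measured 38.8, 39.7, 42.4 and 65.4 CPM in rAAV-OVA mice and 13.7, 20.3, 25.3 and 31.1 CPM in rAAV-control mice. Pecam1, an adhesion receptor at the borders between endothelial cells that leukocytes and platelets also carry, measured 25.5, 26.99, 32.2 and 62.4 CPM against 15.3, 15.5, 18.1 and 18.8 CPM. Neither gene had overlapping groups. The Log2FC was 1.15 for Cldn5 (SE 0.28, FDR 0.00369) and 1.09 for Pecam1 (SE 0.22, FDR 0.00097). The highest value of both genes belonged to D845, and without that mouse the Log2FC values were 0.90 (FDR 0.0161) and 0.74 (FDR 0.00104).

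Both adhesion genes were high in 3 of the 4 rAAV-OVA mice. Vcam1 measured 52.2, 134, 210.1 and 299 CPM with rAAV-OVA and 32.3, 34.1, 42.8 and 45.4 CPM with rAAV-control. Icam1 measured 5.62, 25.8, 46.1 and 76.5 CPM against 1.24, 1.87, 3.16 and 4.21 CPM. The low rAAV-OVA value of both genes was that of D844, the mouse with few T cell gene counts, and it still lay above every control mouse. In the same mouse Cldn5 (39.7 CPM) and Pecam1 (25.5 CPM) were above every control mouse too. The Log2FC was 1.50 for Vcam1 (SE 0.31, FDR 0.00111) and 2.74 for Icam1 (SE 0.66, FDR 0.00332), and without D844 it was 1.69 and 2.79. Without the surrogate variables the values were 2.17 and 3.87.

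Slc2a1, the glucose transporter of barrier vessels, measured 106, 128, 138 and 181 CPM in rAAV-OVA mice and 69.2, 83.0, 85.8 and 156 CPM in rAAV-control mice. The groups overlapped because of 1 control mouse, D706, and the Log2FC was 0.47 (SE 0.26, FDR 0.162). D706 also had the highest Mfsd2a of its group (33.7 CPM). Without it the Log2FC of Slc2a1 was 0.745 (FDR 0.0184), past the limits, and that of Mfsd2a turned from -0.13 to 0.22 (FDR 0.463). Ocln, Tjp1 and Plvap had Log2FC values of 0.23, 0.12 and -0.07, with 95% intervals of -0.21 to 0.67, -0.12 to 0.36 and -0.50 to 0.37.

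At 28 d, then, 4 of 9 members were called, all higher, where 17.7% of all genes were called, 12.8% higher and 4.88% lower. The same 4 members had groups without overlap, as did 29% of all genes. Within batch 1 alone (2 against 2 mice, no surrogate variables) the Log2FC was 1.30 for Cldn5, 0.99 for Pecam1, 2.16 for Vcam1 and 4.56 for Icam1, and all 4 were called. Within batch 2 the values were 0.88, 1.24, 2.22 and 3.47, in the same direction, and none was called. For Slc2a1 the batches gave 0.02 and 1.02, neither called. At 5 and 8 d all mice were of batch 1.

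Since a call on one day and not on another is no test of a difference, the response was also compared between days in the same fit, at FDR 0.05 with no limit on size. Between 28 and 5 d it differed for 2 of 9 members, against 9.48% of all genes. The response of Cldn5 was larger at 28 d by 1.52 on the log2 scale (SE 0.36, FDR 0.012), and that of Mfsd2a was smaller, at -1.22 (SE 0.35, FDR 0.0291). Pecam1 missed the limit at 0.84 (SE 0.29, FDR 0.0624), and so did Ocln at 0.70 (SE 0.29, FDR 0.121). For Vcam1 the difference between the days was -0.02 with a 95% interval of -0.83 to 0.79, and for Icam1 it was 0.36 with an interval of -1.31 to 2.04. The Mfsd2a call did not hold in 6 of the 31 fits without 1 mouse and that of Cldn5 held in all of them.

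Between 8 and 5 d none of the members differed in response, as against 0.192% of all genes, and none had an unadjusted p under 0.05, against 7.21% of all genes. Between 28 and 8 d edgeR again called none, with 0% of all genes called, and Cldn5 and Pecam1 were the 2 members with an unadjusted p under 0.05, at 1.28 (SE 0.40) and 0.81 (SE 0.31), a level 16.2% of all genes reached. DESeq2 and limma called no member in either of these comparisons.

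Within the rAAV-OVA mice, 2 of 9 members were called between 2 and 5 d, where 8.86% of all genes were. Vcam1 rose by 1.32 (SE 0.31, FDR 0.00602) and Mfsd2a by 0.89 (SE 0.26, FDR 0.0252), from 17.998 to 20.05 CPM in the mice of 2 d to the 5 d values above. Icam1 had a Log2FC of 1.67 (SE 0.60, FDR 0.0574) and Ocln one of -0.61 (SE 0.22, FDR 0.0632). All 4 genes had groups that did not overlap, as did 28.3% of all genes. The 2 d groups include batch 2 and the 5 d groups do not. With the batch label added to the fit the Log2FC of Mfsd2a was 0.58 (FDR 0.0912), which ends its call, and 4 of the 31 fits without 1 mouse also lost it.

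No member was called by edgeR between 5 and 8 d in rAAV-OVA mice (2.1% of all genes) or between 8 and 28 d (2.86%), with 1 and 3 members at an unadjusted p under 0.05, which 19.2% and 22.1% of all genes reached. The 3 were Cldn5, Ocln and Pecam1, with Log2FC values of 0.82, 0.69 and 0.61 from 8 to 28 d, and DESeq2 called 2 of them and limma 1.

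Icam1 was also lower in control mice at 28 than at 2 d, by -2.57 (SE 0.64, FDR 0.0258), and was the member called in this comparison, against 2.79% of all genes. Cldn5 (-0.71, SE 0.26, FDR 0.187) and Pecam1 (-0.44, SE 0.21, FDR 0.369) were not called by edgeR but also had an unadjusted p under 0.05, which makes 3 of 9 members against 13.3% of all genes. Cldn5 measured 35.8 ± 13.4 CPM (SD, n = 4) in control mice at 2 d and 22.6 ± 7.38 CPM (SD, n = 4) at 28 d, with overlapping groups. It was called without D740 and without D740, D720 and D844 together. The mice of 28 d did not overlap with those of 2 d for 2 of 9 members, Pecam1 and Icam1, against 17.4% of all genes. For Icam1 all 4 mice of 28 d lay below all 4 of 2 d. The call was lost in 6 of the 31 fits without 1 mouse, among them the one without D740 (-1.73, FDR 0.128). From 2 to 5 d edgeR called no member (1.55% of all genes), Icam1 and Vcam1 being the 2 with an unadjusted p under 0.05 (18.7% of all genes). DESeq2 called Icam1 there and limma called none. From 5 to 8 d and from 8 to 28 d no member was called by edgeR, DESeq2 or limma and none had an unadjusted p under 0.05, where edgeR called 0% and 0.00639% of all genes and 1.89% and 10.1% reached that p.

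To set barrier against adhesion genes within each mouse, the mean log2(CPM + 0.5) of Cldn5, Ocln, Tjp1, Pecam1, Slc2a1 and Mfsd2a was subtracted from that of Vcam1 and Icam1. The size of this difference depends on gene lengths, so only its change between groups can be read, and it is described without a test. At 2 d it was -0.80 ± 0.50 (SD, n = 4) with rAAV-OVA and -0.12 ± 0.98 (SD, n = 4) with rAAV-control. At 5 d it was 1.26 ± 0.24 against -1.29 ± 0.29, and the nearest mice of the 2 groups were 1.00 and -1.04. At 8 d it was 1.27 ± 0.63 (n = 4) against -0.67 ± 1.07 (n = 3), and at 28 d 0.44 ± 1.24 against -1.68 ± 0.35. The 8 d and 28 d groups overlapped in range, through D720 (0.50) and D844 (-1.33).

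The barrier mean taken alone overlapped between the vectors at 5 and 8 d. It was 5.25 ± 0.08 with rAAV-OVA and 5.14 ± 0.13 with rAAV-control at 5 d, and 5.21 ± 0.22 against 5.14 ± 0.22 at 8 d. At 28 d it was 5.55 ± 0.20 against 5.08 ± 0.13, and the lowest rAAV-OVA mouse (5.40) lay above the highest control mouse (5.26). The adhesion mean was 6.51 ± 0.24 against 3.85 ± 0.40 at 5 d and 5.98 ± 1.33 against 3.41 ± 0.32 at 28 d.

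**Figure D3:**
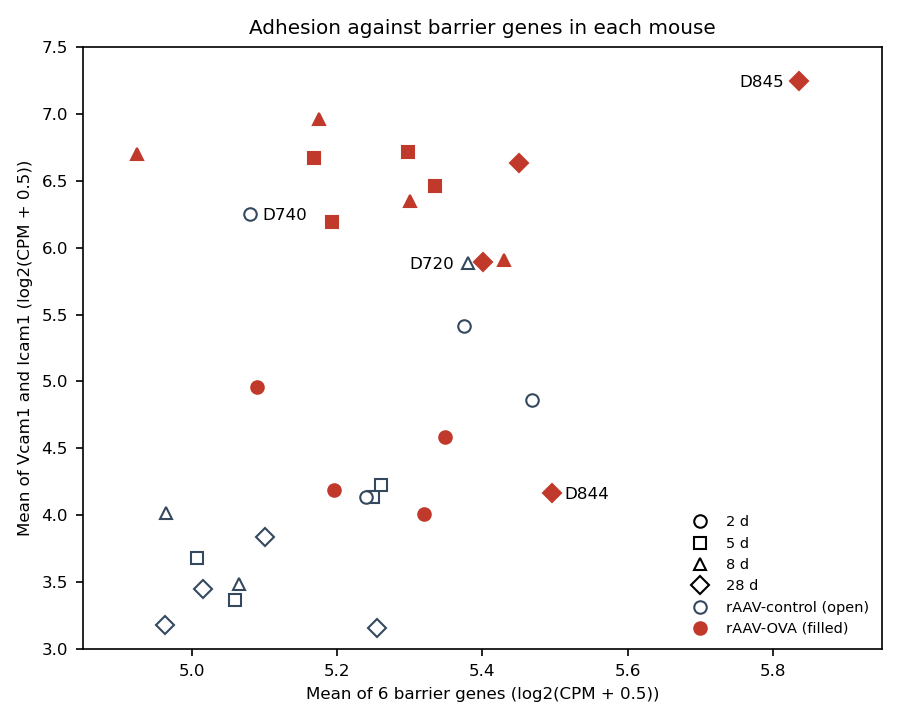
Mean log2(CPM + 0.5) of Vcam1 and Icam1 against the mean of the 6 barrier genes in each of the 31 mice, with open blue symbols for rAAV-control, filled red symbols for rAAV-OVA and shapes for the day. The rAAV-OVA mice of 5 and 8 d lie high on the vertical axis and within the control range of the horizontal axis or close to it, D740 and D720 are control mice with high adhesion values, and D844 is the rAAV-OVA mouse of 28 d with low ones.

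Some general endothelial genes were also called higher at 28 d. Of 20 markers other than the members (Cdh5, Tek, Tie1, Kdr and others), 0, 1, 1 and 9 were called higher at 2, 5, 8 and 28 d and none lower. Their median Log2FC at 28 d was 0.65, beside 0.01 for all genes. Summed CPM was 358 to 628 in rAAV-OVA mice and 292 to 322 in rAAV-control mice at 28 d, without overlap, while at 5 d it was 266 to 329 against 324 to 355. Among those called at 28 d were Clec14a at 1.33 (SE 0.43, FDR 0.0203), Tie1, an angiopoietin co-receptor, at 0.92 (SE 0.26, FDR 0.00864) and Fli1 at 1.74 (SE 0.32, FDR 0.000521). Fli1, a transcription factor that leukocytes share with endothelium, was the marker called at 5 and 8 d. At 28 d 4 of the 20 were called without D845, 3 without BEC-B542 and 14 without D667. Without D845 Clec14a was at 0.57 (FDR 0.141) and Tie1 at 0.36 (FDR 0.101), and neither was called without BEC-B542.

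Relative to this endothelial sum, a comparison added after the data had been seen, Cldn5 remained 0.65 and Pecam1 0.60 higher on the log2 scale in rAAV-OVA mice at 28 d. Neither had overlapping groups in that ratio, and with 4 against 4 mice the smallest exact two-sided permutation p is 0.0286, which both reached (0.0935 after Benjamini-Hochberg adjustment over all members and days). Mfsd2a was 1.16 higher at 5 d on this scale, Vcam1 2.17 and Icam1 3.59, all without overlap. The other ratios without overlap at the same p were Ocln, lower at 5 d by -0.39, Tjp1 at 0.26 and Pecam1 at 0.39 on that day, Pecam1 at 0.34 and Icam1 at 2.78 at 8 d, and Icam1 at 3.09 at 28 d. That p restates the lack of overlap. The share of all genes whose ratio to this sum does not overlap was not computed. In plain CPM the groups of 40.6%, 26.4% and 29% of all genes did not overlap at 5, 8 and 28 d. The ratios are therefore not read as particular to the members.

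**Figure D4:**
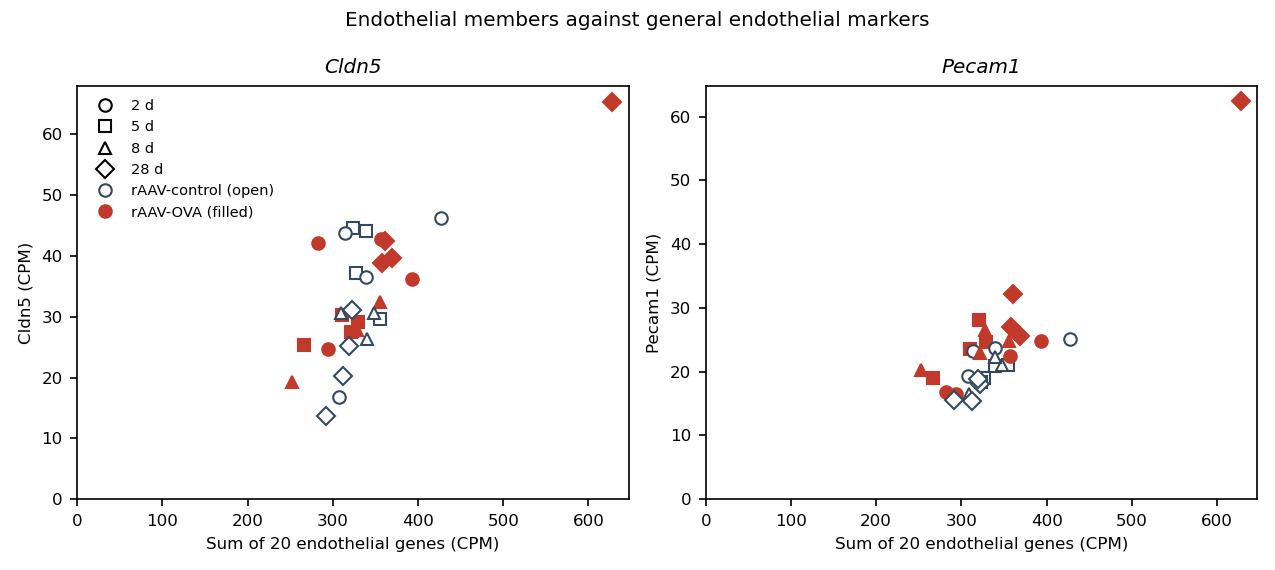
Expression (CPM) of Cldn5 and Pecam1 in each mouse against the summed CPM of 20 general endothelial markers, with open blue symbols for rAAV-control, filled red symbols for rAAV-OVA and shapes for the day. The 4 rAAV-OVA mice of 28 d lie above the 4 control mice of that day on both axes, and D845 lies farthest out at 628 CPM of markers.

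Most measured partners of the adhesion genes on leukocytes were called higher from 5 d on. Of 13 measured integrin subunits, selectin ligands and related genes, 10, 9 and 11 were called higher at 5, 8 and 28 d and none lower, with median Log2FC of 2.14, 2.11 and 2.74. Itgal, which with Itgb2 forms the receptor for Icam1, rose by 4.58 at 5 d (SE 0.76, FDR 0.000142), by 3.86 at 8 d and by 4.61 at 28 d. Cd6 and Spn, surface proteins of T cells, rose by 5.30 and 4.71 at 28 d. Itgb1, part of the receptor for Vcam1, was called at 28 d, and that call was lost without D696 or BEC-B542. Itga4, its partner in that receptor, was measured and called on no day. The 8 d count of called genes was 5 without D722. Itgb1 and Itga4 are named here, like Nectin2, Cdh5, Fzd4 and Reck further on, after their results had been seen.

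Cytokines, receptors and transcription factors known to induce Vcam1 and Icam1 were called higher in 11, 12 and 13 of 16 measured genes at 5, 8 and 28 d, with medians of 1.55, 1.70 and 1.80. Tnf rose by 3.85 at 5 d (SE 0.86, FDR 0.0018), by 4.29 at 8 d and by 4.06 at 28 d. Its receptor Tnfrsf1b rose by 2.59, 2.89 and 2.77 on the same days, and Ltb, a lymphotoxin subunit, by 3.17, 3.99 and 5.93. The 8 d count of this list was 3 without D722, where the Tnf call was lost. Neither list had a called gene at 2 d, when Tnf had a Log2FC of -2.74 (SE 0.75, FDR 0.299). In 16 other adhesion and transmigration genes the counts were 5 higher and 1 lower at 5 d, 3 higher at 8 d and 6 higher at 28 d. They include Cd44, a hyaluronan receptor that leukocytes also carry, at 3.09, 1.97 and 2.57, and F11r, a junctional adhesion molecule, at 0.92, 0.92 and 1.09. The count at 8 d was 1 without D722, D845, BEC-B541, D684 or D701, 1 with no surrogate variables and 0 in the mice of 8 d alone. Over the fits without 1 mouse the 8 d call of Cd44 was lost in 7 of 31 and that of F11r in 8, with 1.20 and 0.59 without D722.

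Junction and barrier genes outside the members moved in smaller numbers. Of 18 measured tight and adherens junction genes, 1 rose and 1 fell at 5 d, 1 rose at 8 d and 4 rose at 28 d, with median Log2FC of 0.08, -0.0046 and 0.24. Those at 28 d were F11r, Lsr of tricellular contacts at 0.88 (SE 0.22, FDR 0.00473), Nectin2 and the endothelial cadherin Cdh5. The gene that fell was Cldn1 at 5 d (-2.43, SE 0.73, FDR 0.0149), on a day when 8 of 10 choroid plexus markers were also called lower. Without D724 none of those 10 markers and 1 of the 18 junction genes were called at 5 d, with Cldn1 at -1.41 (FDR 0.188). Over the fits without 1 mouse the choroid plexus count ranged from 0 to 8, being 0 also without D845. The 8 d call among junction genes, F11r, is the one lost in 8 fits. Cdh5 at 28 d was 0.34 without D845 (FDR 0.206). Of 20 barrier transport genes, 2 rose and 3 fell at 5 d, 1 rose and 1 fell at 8 d, and 2 rose at 28 d. The 28 d count was 0 without D845 and ranged from 0 to 4 over the fits without 1 mouse. The 5 d count was 3 without D725. The 8 d count was 0 without D722, 1 without BEC-B541 or D703, and 0 in the mice of 8 d alone. Slc22a8, an organic anion transporter, fell by 1.02 at 5 d (SE 0.24, FDR 0.00298) and by 0.92 at 8 d. The flippase gene Atp10a rose by 0.95, 1.23 and 0.72, the last of which was not called in 9 of the 31 fits without 1 mouse.

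Genes of the Wnt-driven barrier program were called higher in 1, 2 and 5 of 17 at 5, 8 and 28 d and lower in 2 at 5 d (Fzd4 and Reck). Calls in either direction ranged from 1 to 4 at 5 d, 1 to 2 at 8 d and 2 to 6 at 28 d over the fits without 1 mouse. The lowest came without D725 at 5 d and without BEC-B542 at 28 d, where the fits without D705, D843 or D684 had 3. The Reck call was lost in 13 fits. The largest values belonged to Tcf7 (2.38, 3.83 and 4.32) and Lef1 (1.31 at 28 d), transcription factors that T cells also use, and Lrp5 rose by 0.82 at 28 d. All counts of called genes in these lists stand against the shares of all genes called given above. In 8 genes of caveolae and fenestrae, Plvap among them, the counts were 2, 1 and 4 higher and none lower, with 1 at 28 d without D845 or BEC-B542 and 1 at 5 d without D724. Cav1, the caveolar coat protein, rose by 0.87 at 5 d (SE 0.28, FDR 0.021) and by 0.78 at 28 d, the latter lost in 8 of 31 fits without 1 mouse. Ehd4 was the gene called on all 3 days and Ehd2 was called at 28 d. The 8 d call of Ehd4 (0.73) was lost without D696, D722, BEC-B541, D684, D700, D701 or D702, with at least 15 counts in every mouse and in the mice of 8 d alone. Plvap stayed between 4.95 and 12.3 CPM in all 31 mice. Among 14 venous, activation and angiogenic genes, 2 rose at 5 d, 1 fell at 8 d and 4 rose at 28 d, with Vwf at 2.47 (SE 0.60, FDR 0.00359), Lrg1 at 2.47 and Tnfrsf11b at 1.42 on the last day. Vwf, the von Willebrand factor, measured 303 CPM in D845 against 28.8, 33.3 and 36.8 CPM in the other rAAV-OVA mice and 12.5 to 20.3 CPM in control mice. Lrg1 measured 18.2 CPM in D845, 0.76 to 1.20 CPM in the others and 0.42 to 0.87 CPM in control mice. Without D845 Vwf was 0.97 higher (FDR 0.017) and Lrg1 was at 0.72 (FDR 0.31), and without BEC-B542 neither was called. The count at 28 d was 2 without D845 or D851 and 0 without BEC-B542, and at 5 and 8 d it ranged from 1 to 3 and from 0 to 2 over the fits without 1 mouse.

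Markers of other cells changed with the same contrasts, and their part in the member results was not tested beyond the values given. All 3 measured T cell genes of 8 listed and 9, 8 and 9 of 9 myeloid genes were higher at 5, 8 and 28 d, with Cd8a at 5.45, 5.15 and 7.27 and Ly6c2 at 6.06, 4.07 and 3.46. Perivascular fibroblast genes were called higher in 4 of 6 at 28 d, with Col3a1 at 2.82, in 1 without D845, which stands apart in these genes, and in 0 without BEC-B542. Col3a1 measured 80.9 CPM in D845 and 5.25 to 8.14 CPM in the other rAAV-OVA mice, against 2.56 to 3.89 CPM in control mice, and was 1.16 higher without D845. Of 10 pericyte genes 1 rose and 1 fell at 5 d, 1 rose at 8 d and 2 rose at 28 d, and of 5 smooth muscle genes 1 rose at 5 d and 2 at 28 d. Without D845 the 28 d counts were 1 and 0, and over the fits without 1 mouse they ranged from 0 to 3 and from 0 to 4. The pericyte counts ranged from 1 to 2 at 5 d and 0 to 3 at 8 d, the smooth muscle count from 1 to 2 at 5 d, and the platelet count that follows from 0 to 2. The 4 measured blood genes were lower at 5 d (Hba-a2 at -1.07) and 1 of 3 platelet genes was higher (Itga2b at 1.04). The blood count was 2 without D724 or D844, 1 without D786 and 0 without D745, D851, D725, D701, D684, BEC-B541 or BEC-B542, and 0 in the mice of 5 d alone. In 8 astrocyte genes 1 fell at 5 d (Gja1 at -0.91) and 1 rose at 28 d (Gfap at 1.10), and in 8 neuron genes 1 fell at 5 d (Camk2a at -0.84) and 4 fell at 28 d (Snap25 at -0.89 and Nefl at -0.76 among them). The neuron count at 28 d was 2 without D845, which had the lowest neuron sum (4251 CPM), and 1 without D844 or BEC-B542, and the astrocyte count ranged from 1 to 3 at 5 d and 0 to 3 at 28 d over the fits without 1 mouse. With no surrogate variables the astrocyte count at 5 d was 5. At 8 d the myeloid count ranged from 3 to 9 over those fits, and in the mice of 8 d alone no gene of the T cell, myeloid, integrin and selectin ligand or cytokine lists was called.

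How the members varied among mice of one group was described by Pearson's r over the 31 mice after subtracting group means. The points share libraries, sequencing depth and sampling of tissue, and no p is given. The r values were not recomputed without single mice, so the part of mice that stood apart, such as D845, D844, D720 and D740, was not tested. Vcam1 and Icam1 followed each other (r = 0.86). Vcam1 went with the mean of the myeloid markers (0.92) and of the T cell markers (0.89), and Icam1 did so at 0.85 and 0.77. With the general endothelial markers their r was 0.31 and 0.18, and with the astrocyte markers it was 0.62 and 0.45.

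The barrier genes did not form one block. Pecam1 went with the endothelial markers (0.92), Cldn5 (0.65) and Tjp1 (0.57) less closely, and Mfsd2a ran against them (-0.45) and against Cldn5 (-0.56). Mfsd2a went with the astrocyte markers (0.43). Slc2a1 had an r of 0.52 with the astrocyte markers and 0.34 with the endothelial markers. Ocln went with the smooth muscle markers (0.73) and, less closely, the choroid plexus markers (0.53). Plvap ran against the neuron markers (-0.82), as did Vcam1 (-0.68), Pecam1 (-0.62) and Icam1 (-0.54).

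**Figure D5:**
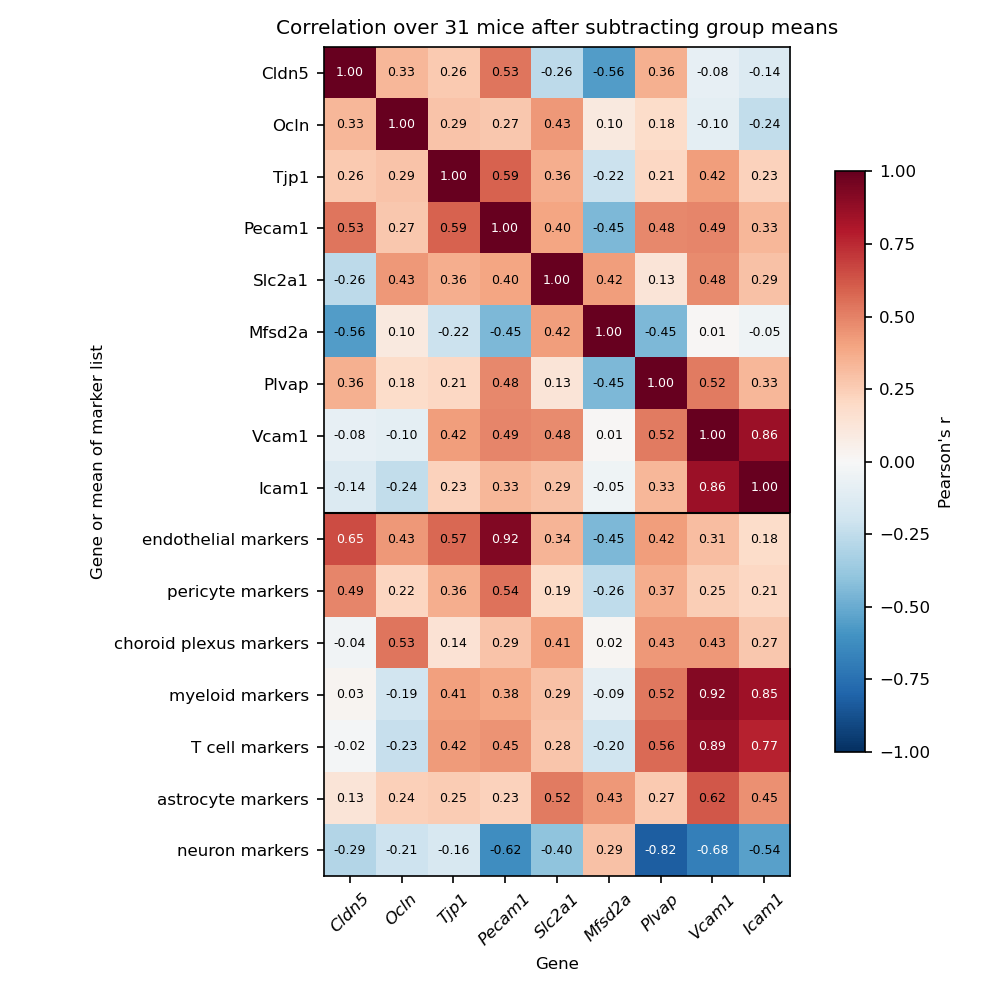
Pearson's r over the 31 mice between the 9 genes, and between each gene and the mean log2 expression of 7 marker lists, after subtracting the mean of each group. Red cells link Vcam1 and Icam1 to each other and to myeloid and T cell markers and link Pecam1 to endothelial markers (0.92). Blue cells set Plvap (-0.82), Vcam1 (-0.68), Pecam1 (-0.62) and Icam1 (-0.54) against neuron markers. They also set Mfsd2a against Cldn5 (-0.56) and Pecam1 (-0.45).

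Among 14275 genes with a mean of at least 1 CPM, the gene most like each member over the 31 mice was Srgn for Vcam1 (r = 0.98), Bcl3 for Icam1 (0.96), Vwf for Pecam1 (0.90), Ctnnd1 for Tjp1 (0.89), Cavin2 for Ocln (0.87), Foxf2 for Cldn5 (0.82), Rin2 for Slc2a1 (0.82), Ube2g2 for Mfsd2a (0.81) and Aifm1 for Plvap (0.69). After subtraction of group means the leading genes were Rubcnl for Vcam1 (0.95), Casp4 for Icam1 (0.92), Cd93 for Pecam1 (0.91), Btbd7 for Tjp1 (0.90), Sgms1 for Slc2a1 (0.86), Zfp677 for Plvap (0.85), Foxf2 again for Cldn5 (0.84), Zic2 for Ocln (0.82) and Rab40c for Mfsd2a (0.81). Cldn5 was the member whose leading gene was the same in both. Foxf2 is a transcription factor of brain vessels, and Cd93 a surface protein of endothelium.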

How the data were processed

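RNA was sequenced from the left hippocampus of 31 mice. Per the labels and the study's methods, the authors trimmed reads, quantified them with Salmon 1.8.0 against GENCODE M29 (GRCm39) and kept each gene that reached 15 counts in 15 or more mice. The deposited values are estimated counts per gene, unnormalised and already in whole numbers. The 2 deposited tables were identical, and 824 of 15648 genes had no symbol. Members and gene lists were chosen with earlier results of these data known.

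Groups came from the labels. edgeR 4.0.16 (TMM, robust quasi-likelihood F-test, R 4.3.3) was fitted to all 31 mice with a term for each of the 8 groups plus 2 surrogate variables (sva 3.50.0), and p-values were adjusted over all genes (Benjamini-Hochberg). A call needed FDR up to 0.05 and a Log2FC of 0.66 or more in size, the latter not for differences in response between days. Surrogate variables were estimated from the same counts. limma 3.58.1 (voom) and DESeq2 1.42.0 were alternatives, and CPM used TMM library sizes. On simulated counts for the 5 d comparison over 15648 genes, 71 of 100 genes changed by 1 on the log2 scale and 95 of 100 changed by 2 were called, with 6 false calls. Only the rAAV-OVA group of 5 d was changed there, in far fewer genes than were called in the data. The simulation held no batch or hidden factor, so it cannot show how the surrogate variables act on these data. At 19046977 to 57407902 counts per mouse, counting error was small against the spread between mice, the lowest chi-square per gene within a group being 11.9 where counting noise alone gives 1. No source names a shared animal, and p-values measure the spread between these mice.

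Besides the members, genes were named by rule: of each list, up to 3 genes called on most days, by size of Log2FC; and for likeness the genes with the highest Pearson's r of log2(CPM + 0.5), of which the first is printed. Values of several genes that this rule names are not reported here. Promoters came from a RefSeq table on GRCm38.p6. That build is not the one of the counts, so the promoter positions hold for GRCm38.p6 alone.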

Additional observations from a re-analysis of the deposited data

Results flagged for a closer look

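Among 63 sets of 1 gene in 1 group of 4 mice, 4 held a mouse far from the others by Dixon's test at the 95% level, which chance alone gives in about 1 of 20 sets. Cldn5 reached 65.4 CPM in D845 (rAAV-OVA, 28 d), and Tjp1 reached 133.9 CPM in D787 (rAAV-OVA, 5 d), the highest of its group. The lowest values that stood apart were Slc2a1 at 85.9 CPM in D703 and Plvap at 4.95 CPM in D701, both rAAV-OVA at 8 d. The response to ovalbumin differed between 28 and 5 d by edgeR's test of that difference for Cldn5, larger at 28 d by 1.52 on the log2 scale, and for Mfsd2a, at -1.22.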

How the results depend on the processing

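At 2 d 0 members and at 5 d 3 members were called under each of the 12 and 10 alternatives run and in all 31 fits without 1 mouse. At 28 d 4 were called in 11 of 12 alternatives, 0 in batch 2 alone, and 4 to 5 without 1 mouse, the fifth being Slc2a1 without D706. The difference between adhesion and barrier genes kept its sign on each day under its 4 alternatives and without each mouse. At 8 d, 1 member was called with at least 15 counts in every mouse, with the batch label in place of surrogate variables or with no surrogate variables, and 0 in the mice of the day alone, with a range of 0 to 2 over the fits without 1 mouse. There the Icam1 call was lost without D696, D722, D845, BEC-B541, D684, D700, D701 or D702, and the Vcam1 call without D696, D722 or D845.

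In control mice, 28 against 2 d gave 2 calls without D740, D720 and D844 together (chosen after seeing the data), 0 with limma and 0 to 1 without 1 mouse (0 without D705, D706, D851, D743 or D696, while without D740 Cldn5 was called in place of Icam1), and 5 against 2 d gave 1 with DESeq2 and 0 to 1. In rAAV-OVA mice, 28 against 8 d gave 2 with DESeq2, 1 with limma and 0 to 3, and 5 against 2 d gave 1 with the batch label beside surrogate variables, 4 with no surrogate variables and 1 to 4 (Mfsd2a lost without BEC-B542, D684, D725 or D787). The response between 28 and 5 d differed for 1 member without D740, D720 and D844 and for 1 to 3 without 1 mouse (Mfsd2a lost without D706, D723, D845, BEC-B542, D725 or D787). The causes were not tested.

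Signs turned only for values that were not called. With at least 15 counts in every mouse, Cldn5 at 2 d was -0.024 and Plvap at 28 d 0.012. In batch 2 alone, Cldn5, Icam1, Mfsd2a, Ocln and Vcam1 at 2 d were -0.45, 0.031, 0.12, -0.22 and 0.015, and Mfsd2a and Plvap at 28 d 0.045 and 0.17. In batch 1 alone, Ocln and Plvap at 28 d were -0.16 and 0.043. With the batch label beside surrogate variables, Cldn5 at 2 d was -0.026. In its place, or with neither, Plvap at 8 d was 0.0099 and Tjp1 at 8 d -0.014, and Plvap at 28 d 0.094 and 0.097. In the mice of the day alone, Plvap was 0.036 at 8 d and 0.10 at 28 d. Without D740, D720 and D844, Cldn5 and Ocln at 2 d were -0.41 and -0.0032, Ocln at 28 d -0.066, and Plvap 0.03 at 8 d and 0.0297 at 28 d. Relative to endothelial markers, Ocln and Tjp1 at 28 d were -0.28 and -0.22, and Plvap 0.089 at 5 d and 0.079 at 8 d. Without 1 mouse, Cldn5 at 2 d ranged from -0.40 to 0.16, Slc2a1 at 2 d from -0.28 to 0.024, Tjp1 at 5 d from -0.064 to 0.14, Plvap, Slc2a1 and Tjp1 at 8 d from -0.16 to 0.062, -0.0092 to 0.66 and -0.091 to 0.19, and Mfsd2a, Ocln and Plvap at 28 d from -0.29 to 0.22, -0.13 to 0.32 and -0.17 to 0.065.

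No paired analysis was possible because no replicate name occurs in more than 1 group. Depth limits the low genes most, Icam1 in control mice and Plvap. Batch and day cannot be told apart between 2 and 5 d for the batch 2 mice.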
